A study of Mus musculus with 8 samples.

Results

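Mybpc3, Myl2, Myom1 and Ttn encode proteins of the thick filament of the heart muscle sarcomere and of the lattice that holds it. All peaks of N6-methyladenosine (m6A) whose Entrez gene ID was that of 1 of these 4 genes were taken from 2 deposited tables of peaks, which gave 15 of 581 listed peaks. The table for myocardial infarction (MI) against sham surgery held 4 of them, among 116 peaks, in Mybpc3 and Myom1. The table for infarcted hearts labelled aavFto against those labelled aavgnp held 11, among 465 peaks, in all 4 genes.

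The peaks came from MeRIP-seq, which sequences RNA fragments bound by an m6A antibody and, as the input, RNA taken before that step. There were 8 libraries, 1 input and 1 MeRIP library for each of 4 groups of hearts: sham, MI, and MI labelled aavgnp or aavFto. All were from left ventricle of wild-type C57BL/6 mice, and all, sham included, carry an age label of 1 week post MI. The labels do not expand aavFto and aavgnp. They are read here as a vector for Fto, the gene of an enzyme that removes m6A, and its comparison vector. The sources used here give neither the promoter and dose of the vectors, nor the age of the animals, nor how many animals stand behind the 200 µg of RNA per group. No group had a replicate, so each change compares libraries and has no replicate check, and an authors' p-value says nothing of the spread between animals. The sign of the change is not stated in the headers. A positive value was taken to mean more in MI than in sham, or more in aavFto than in aavgnp. If a table used the other order, all of its directions would flip. The level of each transcript was not analysed here, and the sources do not state how far the deposited change corrects for input. A change in methylation, a change in transcript level, fewer muscle cells in the tissue and less RNA per cell cannot be told apart. The level of Fto was not analysed either, so the vector has no check here. No depth per library was analysed, so no interval from counts is given.

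As background, the thick filament is built of myosin, whose heads pull on the thin filament. The regulatory light chain, made from Myl2 in the ventricle, sits on the neck of the myosin heavy chain and tunes contraction when it is phosphorylated. Cardiac myosin binding protein C, from Mybpc3, lies in stripes along the filament and restrains the heads. Titin, from Ttn, runs from the Z-disc to the M-band as a molecular spring, and myomesin 1, from Myom1, links thick filaments and titin across the M-band. The m6A mark is known to be common near the stop codon and in the 3′ part of many messenger RNAs.

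The 2 members that changed past the threshold both rose with aavFto, over long stretches. They were the regulatory light chain gene Myl2 and the filament regulator Mybpc3. The threshold here and below is a false discovery rate (FDR) of 0.05 in the authors' test. All 8 peaks of the aavFto table that passed it were upward, so the rise is not particular to these genes. In MI against sham, Mybpc3 had 3 listed peaks and Myom1 had 1, with negative changes that did not pass. The Ttn peaks were listed only in the comparison of aavFto with aavgnp, had negative changes throughout, and none passed.

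With aavFto, the Mybpc3 peaks reached over most of the gene span, while those of Myom1 and Ttn lay toward the 3′ end. Positions are on mm10 and 1-based, and the gene spans are those of RefSeq on GRCm38.p6. Mybpc3 spans 18403 bp on chromosome 2, from 91118114 to 91136516. Its long peak in the aavFto table ran from 91118204 to 91135443, starting 90 bp after the 5′ end of the span and ending 1073 bp before its 3′ end. That peak had 32 blocks of 3 to 267 nt, with gaps of 78 to 2359 bp between them. The blocks summed to 3564 nt, or 20.7% of the stretch. It was the second longest peak of its table (rank 2 of 465), so it is a region covering most of the gene rather than 1 site.

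A separate Mybpc3 peak near the 3′ end was listed in both tables. With aavFto it ran from 91135815 to 91136486, ending 30 bp before the end of the span. In the MI table it ran from 91135785 to 91136456, ending 60 bp before that end. Both had 3 blocks and 390 nt. The other Mybpc3 peaks of the MI table were inside the gene, at 91122643 to 91123957 (241 nt) and at 91124636 to 91125424 (390 nt), each of 3 blocks.

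Myl2 lies on chromosome 5, from 122092724 to 122113473. Its peak, at 122100980 to 122106854, had 7 blocks of 49 to 184 nt, which summed to 633 nt. The peak began 8256 bp after the 5′ end of the RefSeq span and ended 6619 bp before its 3′ end. Its blocks were spread over 5875 bp, so it too is a region rather than 1 site. The place of the peak in the RefSeq span does not give its place in a transcript. Which Myl2 transcript the blocks follow, and how much of it they cover, was not analysed here, since the gene table holds no exons. For the same reason no peak was assigned to coding sequence, UTR or stop codon.

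The Myom1 span is 123525 bp on chromosome 17, from 71003332 to 71126856, and all of its peaks began past 82.7% of that length. In the aavFto table they ran from 71105547 to 71108667 (4 blocks, 300 nt), from 71112034 to 71117398 (2 blocks of 16 and 105 nt) and from 71126109 to 71126408 (1 block, 300 nt). The last of these ended 448 bp before the 3′ end of the span. The single peak of the MI table, at 71126169 to 71126497 (1 block, 329 nt), overlapped it.

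Ttn covers 278578 bp of the minus strand of chromosome 2, from 76703980 to 76982557. Its 5 peaks all lay in the last 2.17% of that span, between 1144 and 6052 bp from the 3′ end. As background, the 3′ end of the Ttn transcript encodes the M-band part of titin. In order from the 3′ end, the peaks were at 76705124 to 76705304, 76706874 to 76707264, 76709042 to 76709222, 76709612 to 76709702 and 76709852 to 76710032. They were single blocks of 181, 391, 181, 91 and 181 nt. No listed peak of another gene, and no other RefSeq gene, lay over the blocks of any of the 15 peaks.

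**Figure D1:**
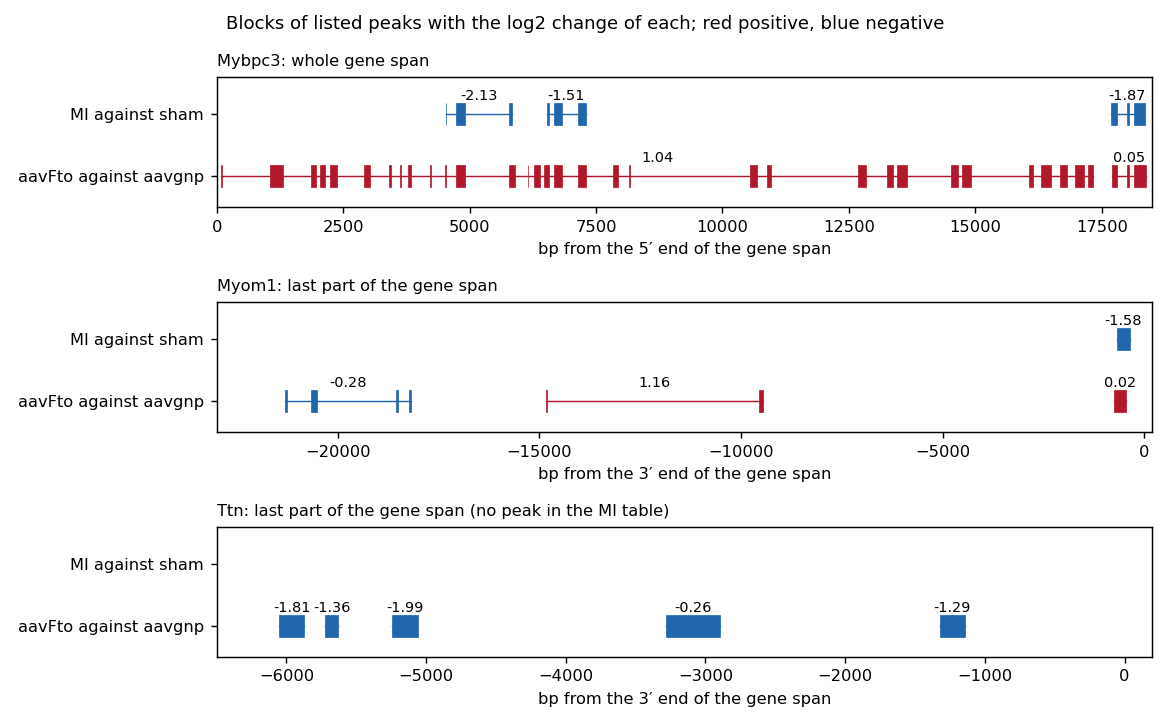
Listed peaks along Mybpc3 (whole span) and along the last parts of Myom1 and Ttn, 1 row per table, with distance in bp on the x axis, boxes for blocks and the log2 change printed at each peak (red positive, blue negative). The 4 peaks of the MI table are blue, and the Mybpc3 and Myom1 stretches that they share with the aavFto table are red there, at changes of 1.04, 0.05 and 0.02.

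MI was compared with sham to ask what infarction does to m6A in the ventricle. Of the 4 listed member peaks 0 passed the FDR, and 0 passed an unadjusted p of 0.05, in the authors' test. Over all 116 peaks, 14.7% passed the FDR and 25.9% the unadjusted p. An FDR of 0.01 and of 0.1 likewise called 0 of the 4 peaks, and called 7.76% and 15.5% of all. For the Mybpc3 peak at 91122643, the log2 change in the authors' deposited table was -2.13, with an unadjusted p of 0.13 and an FDR of 0.64. The Mybpc3 peak at 91124636 stood at -1.51 (p 0.14, FDR 0.64) and the one near the 3′ end at -1.87 (p 0.17, FDR 0.73) in the authors' deposited table. Mybpc3 was thus negative at both internal stretches and at its 3′ end. For Myom1 the authors' deposited table gave -1.58, with a p of 0.26 and an FDR of 0.74.

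All 4 values were negative, in a table where 15.5% of peaks were negative and 84.5% positive. The members made up 4 of its 18 negative peaks, and ranked 3, 5, 9 and 10 from the lowest change. Their median log2 change was -1.73, against 1.92 over all 116 peaks of the authors' deposited table. The smallest absolute change in the whole table was 1.01, so a peak that changed less may have been left out. That Myl2 and Ttn have no listed peak there does not show that they lacked m6A or that it did not change.

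Enrichment over input is given as a linear fold, the authors' own value. For the MI table the authors' deposited table had 55.2, 40.0 and 87.9 for the Mybpc3 peaks in order of position, and 88.5 for Myom1. The median over the table was 65.7. By enrichment p the Myom1 peak ranked 14 and the Mybpc3 peaks 35, 25 and 47 of 116. All 4 had an enrichment FDR under 0.001, as did 54 of all 116 peaks.

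Markers of cell types were read in the same table. Of 7 cardiomyocyte markers, Myh6 and Atp2a2 had listed peaks, and the authors' deposited table gave negative largest changes for both, from -3.93 to -2.56, each past the FDR. Actc1, Myl3, Ryr2, Tnni3 and Tnnt2 had none. Of 6 fibroblast markers, 4 had listed peaks (Col1a1, Col1a2, Col3a1 and Postn), all positive, with largest changes of 4.31 to 7.17 in the authors' deposited table, and 2 of them had a peak past the FDR. Pdgfra and Dcn had none. The listed macrophage markers were 2 of 5, at 2.16 to 3.51, and the endothelial ones 2 of 4, at 1.65 to 2.56, in the authors' deposited table, and none passed the FDR. A marker without a listed peak is not shown to be absent, since peaks are not expression and no absolute change under 1.01 was listed. Other muscle genes did not all follow the 2 listed cardiomyocyte markers. Of 15 peaks of other thick filament and titin-linked genes, described below, 14 were positive after MI and 1, of Myh6, was negative. The part of cell make-up in the negative values of Mybpc3 and Myom1 was not tested.

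The aavFto hearts were compared with the aavgnp hearts to ask what the Fto vector does to m6A after infarction. Of the 11 member peaks 2 passed the FDR, both upward. Over all 465 peaks 8 passed (1.72%), all upward, and 0 passed downward, so the direction does not set these 2 apart. The Myl2 peak rose by 1.15 on the log2 scale in the authors' deposited table, with an unadjusted p of 6.92e-05 and an FDR of 0.0065. The long Mybpc3 peak rose by 1.04 in the authors' deposited table, with a p of 4.27e-04 and an FDR of 0.031. An unadjusted p of 0.05 called these 2 of the 11 peaks, and 4.30% of all peaks. At an FDR of 0.01 only Myl2 was called (1.08% of all peaks), and at 0.1 both were (1.94%). By differential p they ranked 5 and 6 in the table. By size of change they did not stand at the top, with ranks of 43 and 53 from the highest.

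These peaks were also the members with the smallest enrichment p. The log10 of it was -20.4 for Mybpc3 and -18.7 for Myl2 in the authors' deposited table, against a median of -5.36. Their fold enrichment was unlike, at 110.0 for Mybpc3 (rank 13 of 465) and 19.4 for Myl2 (rank 448) in the authors' deposited table. The Myl2 peak was thus among the lowest of its table in fold over input and among the strongest in p.

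The 3′ peak of Mybpc3 had a value near 0 with aavFto. It began 371 bp after the long peak ended, and the authors' deposited table gave it a change of 0.05 (p 0.57, FDR 0.71) and a fold enrichment of 23.3. The difference between the 2 Mybpc3 peaks was not tested, since no error comes with either value.

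Myom1 had no peak past the FDR with aavFto. From the 5′ to the 3′ side, the authors' deposited table gave -0.28 (p 0.58), 1.16 (p 0.43) and 0.02 (p 0.60). The middle value was as large as that of Myl2, but it came from 121 nt of peak with an enrichment log10 p of -6.13, and its p was far from the threshold. The fold enrichment of the 3 peaks was 57.2, 24.3 and 72.2 in the authors' deposited table.

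All 5 Ttn peaks had negative values, none past the FDR, in a table where 67.3% of peaks were negative. In order from the 3′ end the authors' deposited table gave -1.29 (p 0.21), -0.26 (p 0.51), -1.99 (p 0.26), -1.36 (p 0.49) and -1.81 (p 0.30). The peak at -0.26 was the longest of the 5 and the one with the smallest enrichment p, a log10 of -6.69. The other 4 had enrichment log10 p values of -5.11, -4.71, -3.81 and -4.68 in the same order, and ranked from 257 to 443 of 465. The peaks of Ttn at -1.99 and -1.81 ranked 6 and 13 from the lowest change of the authors' deposited table. These peaks lie close together on 1 gene and are not independent of each other. In the authors' deposited table their fold enrichments were 19.8, 26.9, 49.2, 46.5 and 55.5, where the median over all peaks was 54.3.

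**Figure D2:**
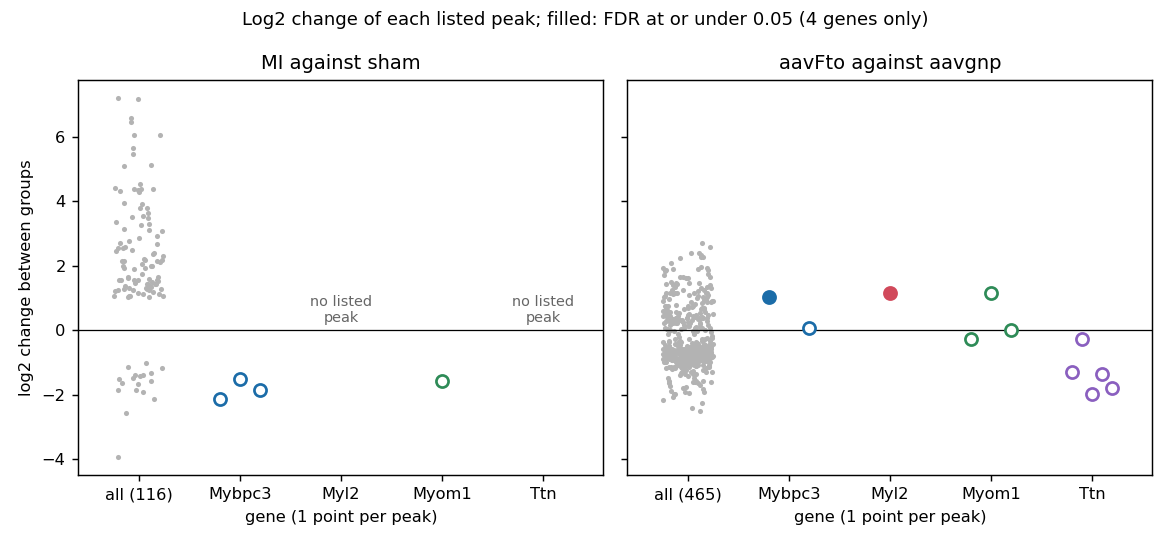
Log2 change (y axis) of all listed peaks (grey) and of each member peak by gene (circles, filled where the FDR was at or under 0.05), 1 panel per table. The member peaks of the MI table lie between -2.13 and -1.51, and with aavFto the filled circles are Mybpc3 at 1.04 and Myl2 at 1.15.

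Over the 11 peaks, 5 were positive and 6 negative (32.7% of the table was positive), and the median was -0.26, against -0.61 over the table. That median rests on Ttn, which gave 5 of the 11 peaks. Without Ttn it was 0.55 over 6 peaks, 5 of them positive, a choice made after seeing the data. The median length of the member peaks was 300 nt, against 181 nt over the table. This did not hold for each gene, since the Ttn peaks had a median of 181 nt and the middle Myom1 peak had 121 nt. Of the 11, 7 had an enrichment FDR of at most 0.001, and 5 of those 7 were positive.

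**Figure D3:**
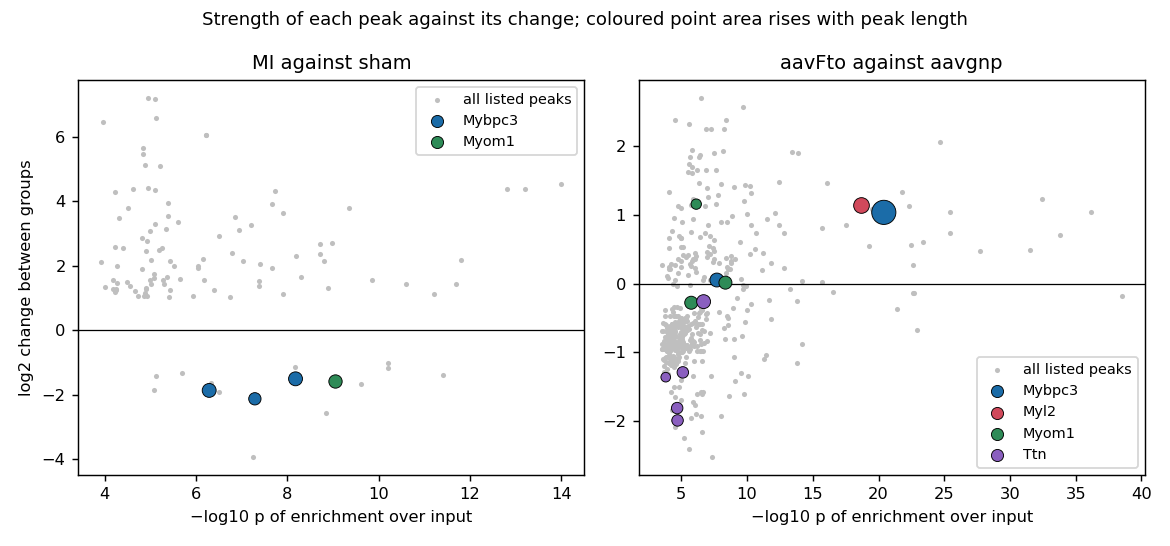
Minus log10 of the enrichment p (x axis) against the log2 change (y axis) for all listed peaks (grey) and member peaks (coloured, area rising with length), 1 panel per table. With aavFto the 2 strong and long peaks of Mybpc3 and Myl2 lie at the upper right, and 4 of the Ttn peaks lie among weak peaks at changes of -1.29 to -1.99.

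The same markers were read in the aavFto table. All 7 cardiomyocyte markers had listed peaks, 6 of them with a positive largest change, over a range of -0.93 to 2.39, and 2 had a peak past the FDR. Of the fibroblast markers, 4 of 6 were listed, 1 positive and 3 negative (-1.10 to 1.65). Of the macrophage markers, 3 of 5 were listed, 1 positive and 2 negative (-1.92 to 1.14). Of the endothelial markers, 2 of 4 were listed, both negative (-0.69 and -0.60). No marker of these 3 types passed the FDR in the authors' deposited table. The part of cell make-up in the values of Myl2 and Mybpc3 was not tested.

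The same stretches could then be read in both comparisons, which use separate libraries. Each of the 4 member peaks of the MI table overlapped a member peak of the aavFto table on the same strand (100% of the former), and they fell on 3 of the 11 aavFto peaks (27.3%). These shares are near those of the whole tables, where 109 of 116 MI peaks (94.0%) overlapped 97 of 465 aavFto peaks (20.9%). Both internal Mybpc3 peaks lay wholly inside the long peak, and their 631 nt made up 17.7% of it. The 3′ peaks of Mybpc3 shared 360 nt and those of Myom1 shared 240 nt.

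At all 4 overlaps the MI value was negative and the aavFto value positive. For Mybpc3 the internal stretches stood at -2.13 and -1.51 after MI, and the long peak that holds them at 1.04 with aavFto, per the authors' deposited tables. The 3′ stretch of Mybpc3 stood at -1.87 and 0.05, and that of Myom1 at -1.58 and 0.02, per the authors' deposited tables. Only the long Mybpc3 peak passed the FDR, and the aavFto values of the other stretches were close to 0. The MI table listed no absolute change under 1.01, while the aavFto table listed changes down to 0.0041. A value close to 0 thus appears in the aavFto table alone, and the sizes of change are not compared between the tables. The pattern was not particular to these genes. Of all 109 overlapped peaks of the MI table, 65 met aavFto peaks of the opposite sign alone. Of the 18 negative peaks of the MI table, as many as 16 overlapped an aavFto peak, and 15 of those 16 overlapped peaks of positive sign alone. The fold enrichment at the 3′ end of Mybpc3 was 87.9 in the MI table and 23.3 in the aavFto table, and at the 3′ end of Myom1 it was 88.5 and 72.2, in the authors' deposited tables. How the tables were scaled is not given, so these folds are set side by side and not compared.

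Other genes of the thick filament and partners of titin were read from a list of 35, which holds myosin heavy and light chains, M-band and Z-disc partners and proteins of myosin folding and turnover. After MI, peaks of 7 of the 35 were listed, 6 with a positive and 1 with a negative largest change, and 3 had a peak past the FDR. Of their 15 peaks 8 passed, 7 upward and 1 downward, and the median over the 15 was 2.40. Those past the FDR were in Myh7 and Ankrd1, upward, and in Myh6, downward. Myh7 encodes the slow myosin heavy chain, and its largest value in the authors' deposited table was 4.42, at a peak that did not pass (FDR 0.50). Ankrd1 encodes a stretch-responsive protein bound to the spring region of titin, and its largest value, 3.47, did not pass either (FDR 0.23) in the authors' deposited table. Myh6, the fast adult heavy chain, fell by 2.56 (FDR 0.027) in the authors' deposited table. Nrap, a protein of myofibril assembly, stood at 1.55, and Actn2, the alpha-actinin that anchors titin at the Z-disc, at 1.54, with an FDR of 0.74 for both in the authors' deposited table.

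With aavFto 17 of the 35 were listed, 7 positive and 10 negative by largest change, and Myh6 and Tcap had peaks past the FDR. Of their 39 peaks 3 passed, all upward, 22 were positive, and the median was 0.25. Tcap, which caps titin at the Z-disc, rose, and the authors' deposited table gave it 2.07 with an FDR of 0.031. The 5 Myh6 peaks were all positive, from 0.70 to 2.25 in the authors' deposited table. The 2 longest passed, with 1.05 (FDR 8.13e-10) and 0.70 (FDR 0.0021), and the largest value of the gene, 2.25, did not (FDR 0.60). By largest change per gene, the next positive values in the authors' deposited table were 1.47 for Myh7 and 1.34 for Cryab, neither past the FDR. Cryab encodes a small heat shock protein that binds titin. The negative values of largest size in the authors' deposited table were -2.16 for the Z-disc crosslinker Flnc, -1.18 for Nrap, -1.16 for the actin-binding Nexn and -0.94 for Ankrd23, a relative of Ankrd1, none past the FDR. For Myom2, the other myomesin with listed peaks, the values were 0.06 and -0.64 per the authors' deposited table, neither past the FDR.

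**Figure D4:**
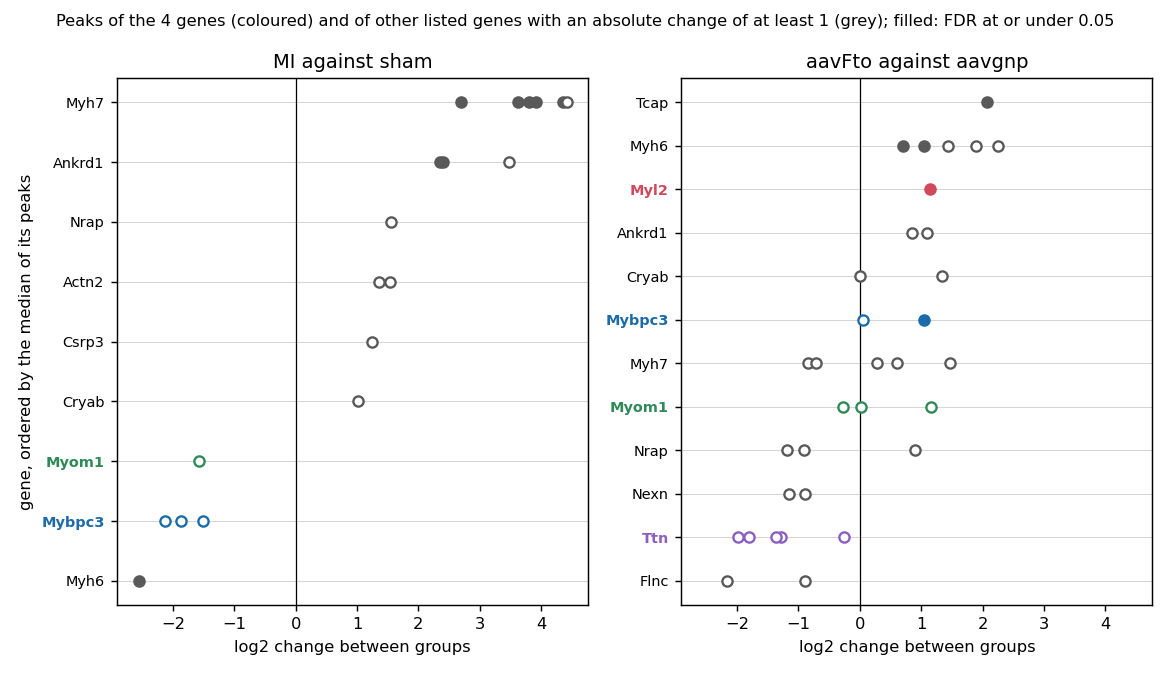
Log2 change (x axis) of each peak of the 4 genes (coloured names) and of those other listed thick filament and titin-linked genes that had an absolute change of at least 1 at some peak (grey), 1 row per gene and 1 panel per table, with filled circles at an FDR of at most 0.05. In the MI table Mybpc3, Myom1 and Myh6 are the genes with negative peaks, and with aavFto the filled circles belong to Tcap, Myh6, Myl2 and Mybpc3.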

How the data were processed

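MeRIP and input libraries of mouse left ventricle were made from poly(A)-selected, fragmented RNA and sequenced as 50 bp single reads, per the labels' protocols. The submitters' processing notes name STAR 2.5.3a and the build mm10. Peak caller, thresholds and library scaling: not given in the sources used here. From there on, 2 deposited peak tables were used, which give blocks, strand and gene ID per the file headers. Their score is the deposited p-value of enrichment. The authors also gave log10 enrichment p and FDR, a linear fold enrichment (a ratio over input), and the log2 change between groups with its log10 p and FDR, per the file headers. The last 2 were converted to p and FDR.

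All 4 member IDs matched RefSeq genes of GRCm38.p6, the assembly of mm10. Peak length is the sum of blocks. Peaks overlapped when blocks shared at least 1 bp on 1 strand. The overlap function was tested on simulated blocks. No p-value was computed. Every listed member peak is described, and of the list of 35 genes those past the FDR and up to 4 per direction and table (Myom2 was named after its values were seen). Members and lists were chosen with earlier results of these data known. No genome was given, so peak sequences are not printed. Alternatives covered thresholds, peak strength, length and size of change, the peak that represents a gene, and the overlap rule. Python 3.11.15, pandas 2.3.3 and matplotlib 3.10.9 were used.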

Additional observations from a re-analysis of the deposited data

How the results depend on the processing

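In MI against sham, 0 member peaks passed an FDR of 0.01 or 0.1 or an unadjusted p of 0.05. The limits on enrichment FDR, size of change and length each kept all 4 member peaks of that table, so they could not move the count of positive peaks or the median. With aavFto, 1 member peak (Myl2) passed an FDR of 0.01 in place of 2, while an FDR of 0.1, an unadjusted p of 0.05, a limit on enrichment FDR and counting by gene each gave 2. Among the 7 peaks with an absolute change of at least 1, 3 were positive and the median was -1.29. The aavFto median of -0.26 turned to 0.0548 among the 7 peaks with an enrichment FDR of at most 0.001, to 0.28 as the median over genes and to 0.55 without Ttn, the last 2 chosen after seeing the data. Required to cover at least 50% of the longer peak, overlaps fell from 4 to 2, because the internal Mybpc3 peaks are short beside the long one. By gene, Myom1 with aavFto went from 1.16 at its largest change to -0.28 at its longest peak, which ties in length with the 3′ peak at 0.02. Ttn was at -0.26 at its strongest peak in place of -1.99, and its mean was -1.34. No paired analysis was possible because each group has 1 library of a kind. The tables give no read counts, so what depth limits is unknown.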

Other observations

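Many peak lengths were near multiples of 1 step. Of the single-block peaks, 63 of 67 in the MI table and 225 of 242 in the aavFto table had a length within 1 nt of a multiple of 30 nt, and so had all 7 single-block peaks of Myom1 and Ttn.

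In the authors' deposited table for aavFto, 443 of 465 peaks carried 1 and the same differential FDR, 0.71, and 9 of the 11 member peaks were among them. In that table the FDR does not order these 9 peaks. In MI against sham, 66 of 116 peaks shared an FDR of 0.74, the Myom1 peak among them.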
